A study of Mus musculus with 6 samples.

Results

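Muscle ubiquitin ligases were read in the right atrium (RA) of mice at postnatal day 21, after sham surgery or volume overload (VO). The group holds 7 genes chosen by name: the F-box genes Fbxl22, Fbxo32 and Fbxo40, the tripartite motif genes Trim54, Trim55 and Trim63, and the kelch gene Klhl31. These are 7 of the 54093 genes in the table. All 7 passed the filter of a mean of at least 1 FPKM over the 6 libraries, as did 12627 genes in all. FPKM are fragments scaled to gene length and to a library size, which here was not simply the fragments on genes. The group was put together around Fbxl22 after its difference between VO and sham had been seen in these libraries. The differences of the members between VO and sham are therefore given as a description, with no test.

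The study asked how VO affects the maturing RA. Wild-type C57BL/6 mice, male or female, were operated on as neonates. VO was made by a puncture from the abdominal aorta into the inferior vena cava, and the sham group was operated on without it. This fistula raises the blood flow back to the whole heart, so the load is not limited to the RA. RNA of the RA myocardium was sequenced in 3 sham and 3 VO libraries, named here from sham 1 to VO 3. The sources do not say whether a library came from 1 mouse or from several, so the spread between libraries may be in part technical.

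Ubiquitin ligases attach ubiquitin to chosen proteins, and chains of ubiquitin send a protein to the proteasome for breakdown. In striated muscle this pathway removes worn sarcomere proteins and drives the loss of mass in atrophy. F-box proteins pick the substrate in complexes built on cullin 1, kelch proteins do so in complexes built on cullin 3, and the muscle RING finger proteins (MuRFs) encoded by the Trim members work through their own RING domain. Fbxl22 is a heart-enriched F-box gene whose protein promotes the turnover of the Z-disc proteins alpha-actinin and filamin C. Fbxo32 encodes atrogin-1 and Trim63 encodes MuRF1, the best known ligases of muscle atrophy and targets of the FoxO transcription factors.

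Sequences upstream of the start site were available for 5 of the 7 members in the RefSeq promoter table of build GRCm38.p6. The 250 bases before the start site are printed for Fbxl22, which had the lowest log2 fold change of the members, for Fbxo40, an F-box member whose groups overlapped, and for Trim63, the most abundant member. Capitals mark matches on either strand to the MCAT motif (CATTCC), the FoxO motif (GTAAACA), the TATA motif (TATAAA), the GATA motif (AGATAA), the MEF2 motif and the CArG box, which is bound by serum response factor. The sequences read 5′ to 3′ along the strand of the gene, at chr9:66514594-66514843 on the minus strand for Fbxl22, chr16:36990468-36990717 on the minus strand for Fbxo40 and chr4:134314870-134315119 on the plus strand for Trim63.
Fbxl22: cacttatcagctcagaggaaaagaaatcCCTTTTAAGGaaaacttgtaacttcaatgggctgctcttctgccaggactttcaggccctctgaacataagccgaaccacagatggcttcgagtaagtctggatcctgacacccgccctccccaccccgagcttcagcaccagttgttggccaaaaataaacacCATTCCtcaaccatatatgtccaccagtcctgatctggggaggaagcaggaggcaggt
Fbxo40: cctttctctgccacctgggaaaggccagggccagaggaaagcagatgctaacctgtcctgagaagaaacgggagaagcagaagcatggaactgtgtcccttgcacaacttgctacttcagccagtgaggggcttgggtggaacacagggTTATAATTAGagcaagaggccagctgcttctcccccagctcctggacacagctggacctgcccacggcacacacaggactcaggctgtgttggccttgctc
Trim63: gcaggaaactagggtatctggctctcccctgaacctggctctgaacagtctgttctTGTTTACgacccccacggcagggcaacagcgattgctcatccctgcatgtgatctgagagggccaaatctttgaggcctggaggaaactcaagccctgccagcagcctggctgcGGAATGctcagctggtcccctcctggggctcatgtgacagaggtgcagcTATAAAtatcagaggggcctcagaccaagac

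Fbxl22 held a CArG box from -222 to -213, counted from the start site, and an MCAT motif from -58 to -53. A CArG box was found in 1.47% and an MCAT motif in 12.6% of the 32851 upstream stretches of the same length in the table. Trim63 held a FoxO motif from -194 to -188, an MCAT motif from -80 to -75 and a TATA motif from -31 to -26. The FoxO motif was found in 3.17% and the TATA motif in 12.4% of all stretches. At its first start site Fbxo40 held a MEF2 motif from -101 to -92, found in 2.92% of all stretches. Trim54 held an MCAT motif from -163 to -158 and another from -75 to -70. Klhl31 held none of the motifs searched, and no GATA motif, found in 9.99% of all stretches, lay in any of the member stretches. E-boxes (CANNTG) were found in 66.2% of all stretches and are not capitalised. A match is only a match of letters, and no binding was measured.

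**Figure D1:**
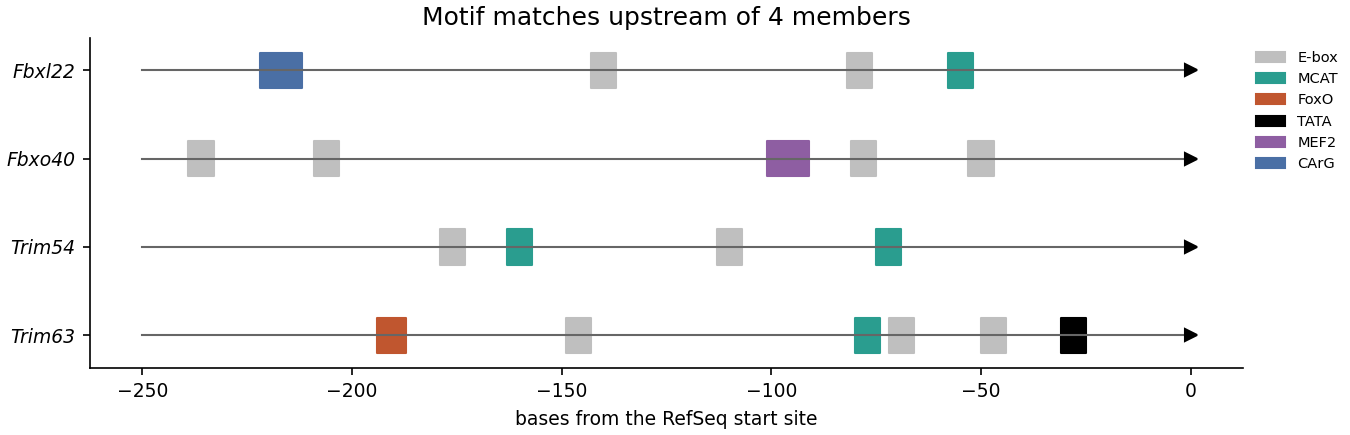
Motif matches in the 250 bases before the RefSeq start site of 4 members, with the distance from the start site in bases on the x axis and boxes for matches on either strand. The CArG box lies in the Fbxl22 stretch and the FoxO motif in the Trim63 stretch, among the 4 shown.

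The 7 genes are protein-coding, and their coordinates in the table were the same as in GENCODE M21 for GRCm38 in 7 of 7. Fbxl22 (ENSMUSG00000050503) lies on chromosome 9 from 66508459 to 66514593 on the minus strand and has 2 exons with 708 coding bases. Fbxo32 (ENSMUSG00000022358) lies on chromosome 15 from 58175879 to 58214932, and Fbxo40 (ENSMUSG00000047746) on chromosome 16 from 36963460 to 36990467. Trim54 (ENSMUSG00000062077) lies on chromosome 5 from 31116712 to 31137630, Trim55 (ENSMUSG00000060913) on chromosome 3 from 19644474 to 19692421, and Trim63 (ENSMUSG00000028834) on chromosome 4 from 134315120 to 134329629. Klhl31 (ENSMUSG00000044938) lies on chromosome 9 from 77636500 to 77660127, on the same chromosome as Fbxl22. The 3 MuRF genes are related, and Trim54 and Trim63 share the longest identical run of coding sequence among the members, 28 bases. The sequences were not aligned, so the run does not give how much sequence the members share in all.
Trim54 and Trim63: aacatcattgacatctacaagcaggagt
The last 317 bases of Fbxl22, in its 3′ untranslated region, overlap with the end of Herc1 on the opposite strand. The sources name no strand-specific kit, so reads from that stretch cannot be told apart. Herc1 was at 3.08 to 4.30 FPKM in sham and at 3.64 to 4.38 FPKM in VO, with overlapping groups. Gm15943, which overlaps Fbxo32 on the opposite strand, was at 0.858, 1.62 and 0.980 FPKM in sham and at 0.707, 0.690 and 0.668 FPKM in VO, far below Fbxo32.

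The libraries held 15963082 to 17237903 fragments on genes, recovered from the FPKM values, and the members were read with 572 to 4057 fragments per gene and library. Defining markers of atrial myocardium were abundant, with Myl7 at 2586 FPKM or more in every library. The summed level of 12 cardiomyocyte markers was 19702 to 23293 FPKM in sham and 10452 to 16795 FPKM in VO, and 11 of the 12 were lower in VO. In bulk tissue, fewer cardiomyocytes and less RNA per cardiomyocyte cannot be told apart. VO 1 stood apart with 634 FPKM for 7 summed immune markers, against 147 to 214 in the other 5 libraries. VO 3 stood apart with the brown fat gene Ucp1 at 253.6 FPKM, listed at 0 in the other 5 libraries. The part of these cell types in the results was not tested, and VO without VO 1 or VO 3 is given where it matters.

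In the sham RA, the 3 MuRF genes were the 3 most abundant of the 37 tested Trim genes, and Fbxl22 was the most abundant of the 48 tested F-box genes. FPKM is per length, so levels were compared between genes, but close ranks depend on the length used. It was 2842 bases for Trim63, whose transcript with the longest coding sequence has 1886. For Fbxl22 it was 3935 bases, the same as its transcript. Trim63 stood at 78.0 ± 11.9 FPKM (SD, n = 3 libraries), followed by Trim55 at 47.9 ± 4.17, Trim54 at 36.3 ± 7.22, Fbxl22 at 35.8 ± 3.42, Fbxo32 at 28.4 ± 2.44, Fbxo40 at 20.9 ± 3.93 and Klhl31 at 10.7 ± 0.835. Trim63 did not overlap with any other member, while Trim54 overlapped with Trim55 and with Fbxl22, and the other neighbours in this order lay apart. Among the F-box genes, Fbxo9 (34.9 ± 0.901) came next and differed from Fbxl22 by less than the spread between libraries. Fbxo32 was 5th and Fbxo40 7th in the F-box family. Klhl31 was 10th of 31 tested Klhl genes, led by Klhl24 (40.3 ± 6.86), Klhl9 (30.3 ± 1.77) and Klhl41 (24.3 ± 0.565), the last of which is a muscle kelch protein that protects sarcomeres.

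Fbxl22 was at 39.6, 34.9 and 32.9 FPKM in sham 1 to 3 and at 17.2, 19.8 and 18.0 FPKM in VO 1 to 3. The lowest sham library lay 13.1 FPKM above the highest VO library, and the VO libraries lay closer together than those of any other member relative to their mean. Its mean in VO was 18.3 ± 1.31 FPKM (SD, n = 3), or 51.2% of the sham mean, with a log2 fold change of -0.96 ± 0.11 (SE). A lower log2 fold change was found in 1.30% of all tested genes, which only describes the difference that the group was built around. From the most abundant tested F-box gene in sham it came to be the 6th in VO.

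Fbxo32, the gene of atrogin-1, was at 26.9, 27.0 and 31.2 FPKM in the sham libraries and at 26.6, 31.7 and 24.6 FPKM in the VO libraries. The groups overlapped and VO 2 was the highest of the 6. The VO mean of 27.6 ± 3.65 FPKM was 97.4% of the sham mean, a log2 fold change of -0.042 ± 0.13 (SE) whose sign turned with TPM (0.097) and with quantile normalization (0.064). Fbxo40, an F-box gene of striated muscle whose protein targets the insulin signalling adaptor Irs1, was at 25.0, 17.2 and 20.4 FPKM in sham and at 16.1, 19.1 and 16.9 FPKM in VO. Sham 1 stood above the rest, and VO 2 lay above sham 2. Its VO mean was 17.4 ± 1.55 FPKM, with a log2 fold change of -0.25 ± 0.16 (SE).

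Trim63 was at 91.8, 71.1 and 71.2 FPKM in sham and at 53.7, 67.9 and 57.5 FPKM in VO. The groups did not overlap, with VO 2 within 3.19 FPKM of the lowest sham library. The VO mean was 59.7 ± 7.37 FPKM, 76.5% of the sham mean, with a log2 fold change of -0.38 ± 0.15 (SE). Trim55, the gene of MuRF2, which binds titin, was at 43.3, 51.3 and 49.1 FPKM in sham and at 32.7, 45.4 and 36.8 FPKM in VO, so that VO 2 lay above sham 1. Its VO mean was 38.3 ± 6.47 FPKM and its log2 fold change -0.33 ± 0.15 (SE). Trim54, the gene of MuRF3, a microtubule-binding member, was at 44.6, 32.6 and 31.6 FPKM in sham and at 23.0, 35.8 and 24.2 FPKM in VO. Here VO 2 lay above 2 of the 3 sham libraries, the VO mean was 27.7 ± 7.09 FPKM and the log2 fold change -0.40 ± 0.21 (SE).

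Klhl31, a kelch protein that skeletal muscle needs for intact sarcomeres, was at 11.3, 9.75 and 11.0 FPKM in sham and at 6.16, 8.04 and 7.60 FPKM in VO. The groups did not overlap, and the VO mean of 7.27 ± 0.982 FPKM was 67.9% of the sham mean, with a log2 fold change of -0.56 ± 0.13 (SE). After Fbxl22 this was the lowest log2 fold change of the group, and 5.16% of all tested genes had a lower one.

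**Figure D2:**
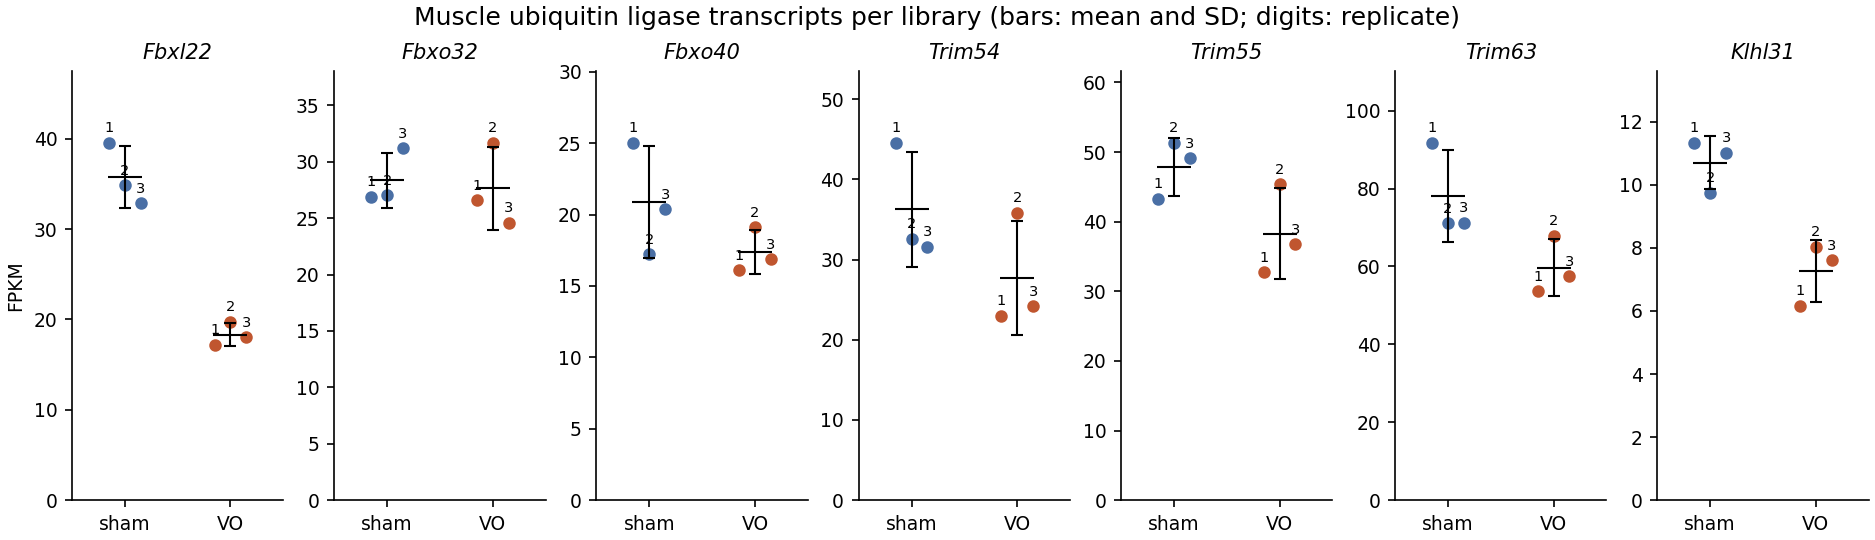
FPKM of the 7 members in each library, with the replicate number beside each point and bars for the mean and SD of 3 libraries; each panel has its own y axis starting at 0. The groups lie apart in Fbxl22, Trim63 and Klhl31. VO 2 is the highest VO library in all 7 panels, as it was for the summed cardiomyocyte markers.

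The mean was lower in VO for 7 of 7 members (by log2 fold change, 6 of 7 with TPM or quantile normalization, where Fbxo32 turned), where 51.5% of all tested genes had a log2 fold change below 0. The median log2 fold change was -0.38 over the members and -0.01 over all tested genes. The groups did not overlap, with VO lower, in 3 of the 7 members and in 12.9% of all tested genes. The members were chosen with this contrast in view, and nothing is read from these counts. VO 2 was the highest VO library in 7 of 7 members and VO 1 the lowest in 6 of 7. The summed cardiomyocyte markers had the same highest and lowest VO library, at 10452, 16795 and 13990 FPKM in VO 1 to 3. The share of all tested genes with this order was not counted. Without VO 2 the groups did not overlap, with VO lower, in 7 of 7 members and in 21.2% of all tested genes. Without VO 1 the groups lay apart in this direction in 3 of 7 members and in 15.2% of all tested genes. In the same direction the count was 4 of 7 without sham 1 (17.2% of all tested genes) or sham 2 (18.4%), and 3 of 7 without sham 3 (18.7%) or VO 3 (19.9%).

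The summed level of the 7 members was 257.9 ± 21.3 FPKM in sham and 196.3 ± 27.7 FPKM in VO. Fbxl22 made up 14.0%, 14.3% and 13.3% of this sum in sham 1 to 3 and 9.79%, 8.68% and 9.72% in VO 1 to 3. The groups did not overlap. A share also depends on the other members, and Fbxo32, whose own level overlapped between groups, made up 9.52%, 11.1% and 12.6% in sham and 15.2%, 13.9% and 13.3% in VO of a sum that was lower in VO. The shares of the 3 MuRF genes overlapped between groups, with Trim63 at 30.1 ± 2.04% in sham and 30.5 ± 0.589% in VO. On the log2 scale, Fbxl22 lay 0.22 ± 0.089 above the mean of the other 6 members in sham and 0.41 below it in VO (-0.41 ± 0.10, SD, n = 3).

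Each member was also set against the mean log2 level of the 12 cardiomyocyte markers in the same library, which was 9.23 ± 0.057 in sham and 8.77 ± 0.29 in VO. Relative to these markers, Fbxl22 was 0.50 lower in VO on the log2 scale (a difference of -0.50), with -3.97, -4.04 and -4.19 in sham 1 to 3 and -4.36, -4.73 and -4.61 in VO 1 to 3. Fbxo32 was 0.42 higher in VO by the same measure, with -4.53, -4.41 and -4.27 in sham and -3.73, -4.06 and -4.17 in VO. The marker mean itself differed by -0.46, against a median of -0.01 over all tested genes. A gene without change therefore lies above 0 on this measure. Without the markers the log2 fold change of Fbxo32 was -0.042. Fbxl22 and Fbxo32 were the members whose relative levels did not overlap between groups, and with quantile normalization their differences were -0.68 and 0.23. The share of all tested genes without overlap on this scale was not counted, so nothing is read from the lack of overlap. In the other 5 members the relative levels overlapped, with differences from -0.10 for Klhl31 to 0.21 for Fbxo40, and 0.058, 0.13 and 0.076 for Trim54, Trim55 and Trim63, whose signs turned with quantile normalization (-0.11, -0.019 and -0.034). The same normalization gave -0.37 for Klhl31 and 0.0057 for Fbxo40.

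**Figure D3:**
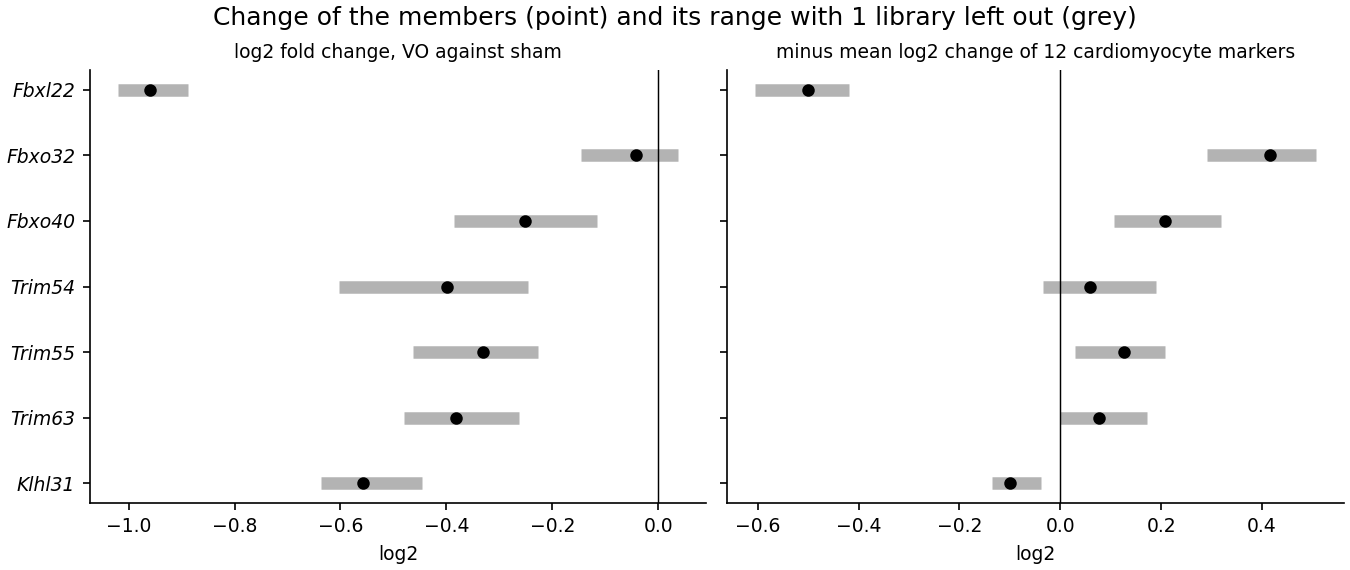
Log2 fold change of each member between VO and sham (left) and the same minus the mean log2 change of 12 cardiomyocyte markers (right); points show the value over all 6 libraries and grey bars its range with 1 library left out. Fbxl22 lies lowest in both panels, and in the right panel Fbxo32 lies highest at 0.42. The marker mean itself differed by -0.46, so a gene without change lies above 0 in the right panel.

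Trim63, Fbxo32 and other members are also abundant in skeletal muscle, so its markers were read in the same libraries. Of 10 markers, Myh1 and Myf6 were at 0 in all 6 libraries, Myh2 and Myh4 did not pass 0.077 FPKM, and 3 had a mean of at least 1 FPKM. Their summed level was 11.1 to 13.7 FPKM in sham and 2.65 to 9.02 FPKM in VO, against summed levels of 175.5 to 282.4 FPKM for the 7 members. The ventricular gene Myl2 varied from 2.02 to 60.4 FPKM within sham and from 1.54 to 20.6 FPKM within VO. The 4 ventricular markers summed to 119.4 to 306.1 FPKM in sham and 90.8 to 141.6 FPKM in VO, Irx4 did not pass 0.259 FPKM and Hand1 was at 0 in 5 of the 6 libraries. The 5 smooth muscle markers summed to 178.3 to 239 FPKM in sham and 82.9 to 137.1 FPKM in VO, mostly Acta2. The 7 fibroblast markers summed to 851 to 895 FPKM in sham and 887 to 1278 FPKM in VO, and the 6 endothelial markers to 201.6 to 213.4 and 213.1 to 222.4 FPKM. The 5 adipocyte markers summed to 38.7 to 54.3 FPKM in sham and to 42.6, 53.1 and 528 FPKM in VO 1 to 3. The log2 fold change of Fbxl22 was -0.92 without VO 1 and -0.95 without VO 3.

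The other genes of the 3 ligase families were read beside the members. Of 45 tested F-box genes other than the members, 25 were lower and 20 higher in VO around a median of -0.048 (log2 fold change), and Fbxl22 had the lowest of the whole family. Fbxo9 had -0.24. Of the 34 other Trim genes, 9 were lower and 25 higher, with a median of 0.15, while the 3 MuRF genes held the 2nd to 4th lowest values among all 37. Of the 30 other Klhl genes, 16 were lower and 14 higher, with a median of -0.038, and Klhl31 was second lowest of 31 after Klhl34. An unadjusted p-value under 0.05 from limma was found for lower levels in 2 F-box, 1 Trim and 3 Klhl genes, and for higher levels in 1, 2 and 0, where 8.08% of all tested genes were lower and 3.89% higher at that level. No gene of these families, the members aside, had an adjusted p under 0.05. The members were chosen with this contrast in view, so their ranks in the families are a description only.

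**Figure D4:**
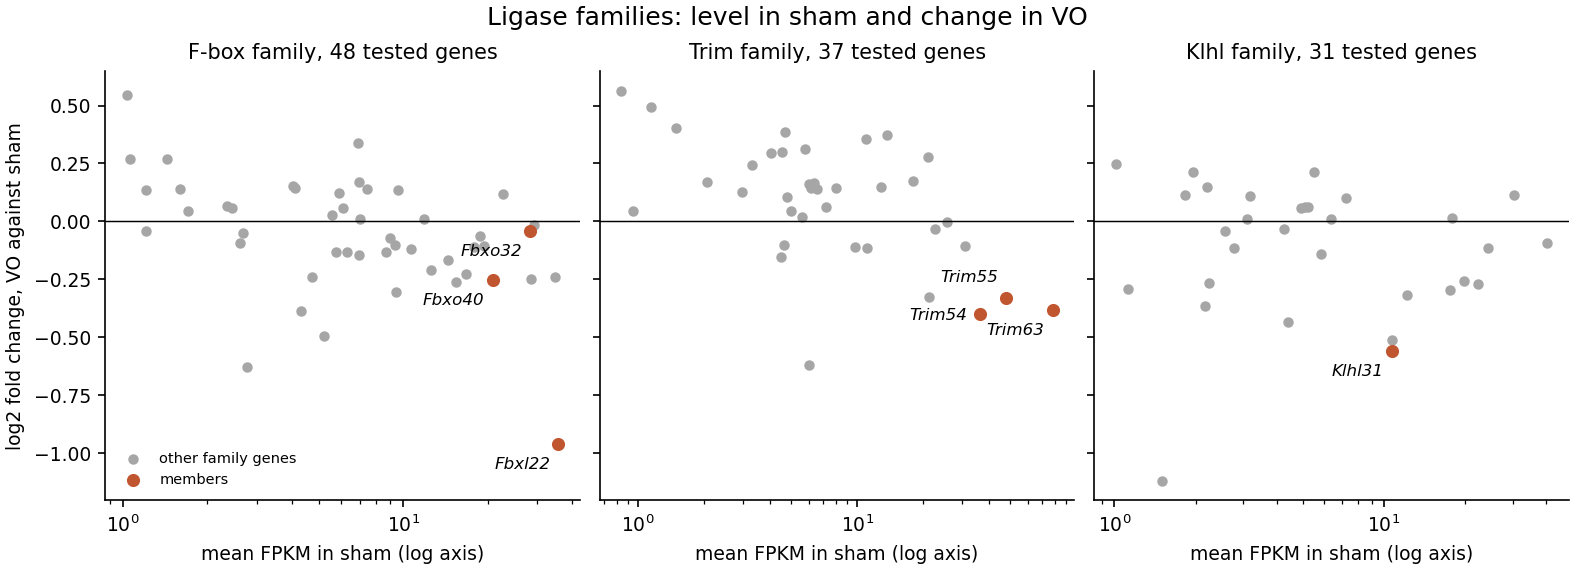
Mean FPKM in sham (x axis, log scale) and log2 fold change between VO and sham (y axis) for the tested genes of the F-box, Trim and Klhl families, 1 point per gene, with the 7 members in orange. Fbxl22 lies at the lower right of its family and the MuRF genes at the right of theirs.

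The rest of the pathway was read in 7 lists holding 204 genes, of which 199 were tested with limma over all 12627 genes. None of the 199 had an adjusted p under 0.05, and the smallest was 0.157. At an unadjusted p-value under 0.05, 29 were lower and 7 higher in VO, where 8.08% of all tested genes were lower and 3.89% higher. A log2 fold change below 0 was found in 51.5% of all tested genes, against which the counts of lower genes below are to be read. With voom on recovered fragments the numbers were 0 after adjustment, and 35 lower and 6 higher before it. The only tested gene past the adjusted threshold in the whole table was Nppb, named after its values were seen, which was lower in VO (0.00792% of the tested genes) and in none of the lists. Scaling mattered for these directions: with TPM the median of all tested genes moved from -0.01 to 0.13, and 486 genes were lower and 1085 higher at an unadjusted p-value under 0.05, against 1020 and 491 with FPKM.

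Other ligases of muscle held the smallest p-value of the 7 lists. Asb2, a cullin 5 adaptor that directs filamins to breakdown, was at 71.4, 78.8 and 78.1 FPKM in sham and at 39.2, 44.3 and 47.0 FPKM in VO. Each VO library lay below each sham library, with means of 76.1 ± 4.12 and 43.5 ± 3.95 FPKM, which gave -0.81 ± 0.11 (SE) on the log2 scale and an adjusted p of 0.157 in limma. Over the alternatives its adjusted p ran from 0.111 to 0.601. Fem1a, a substrate receptor of cullin 2 complexes, was at 32.5 ± 1.69 and 22.1 ± 3.43 FPKM, or -0.56 on the log2 scale (adjusted p = 0.344). Fbxo21 had a log2 fold change of 0.34 (adjusted p = 0.414) and Cblb 0.26 (adjusted p = 0.456), both without overlap. Of the 41 genes tested in this list, 26 had a lower mean log2 level, and the median was -0.12 (0.023 with TPM, -0.042 with quantile normalization and -0.059 without VO 1). At an unadjusted p-value under 0.05, 5 were lower (12.2%, against 8.08% of all tested genes) and 1 higher.

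The core of the cullin-RING complexes, in which the F-box and kelch members work, had 17 of 23 tested genes lower and a median log2 fold change of -0.15 (-0.011 with TPM and -0.093 with quantile normalization). At an unadjusted p-value under 0.05, 4 were lower (17.4%, against 8.08% of all tested genes) and 1 higher. Cand2, the muscle form of a cullin exchange factor, was at 14.1 ± 1.38 FPKM in sham and 10.7 ± 0.431 FPKM in VO (log2 fold change -0.38, adjusted p = 0.391). Elob, the elongin B of cullin 2 and cullin 5 complexes, was at 63.3 ± 11.6 and 43.3 ± 5.77 FPKM (log2 fold change -0.54, adjusted p = 0.404). Glmn, an inhibitor of the cullin RING subunit Rbx1, was higher at 1.55 ± 0.278 and 2.28 ± 0.120 FPKM (log2 fold change 0.54, adjusted p = 0.404).

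Ubiquitin and its activating and conjugating enzymes were lower for 17 of the 28 genes tested, and the median was -0.064 (0.075 with TPM and 0.031 with quantile normalization). Cdc34, the conjugating enzyme that serves F-box complexes, was at 43.9 ± 7.63 and 26.1 ± 6.29 FPKM, or -0.77 on the log2 scale (adjusted p = 0.383). Ube2e2 and Ube2d1 were higher without overlap, with log2 fold changes of 0.31 (adjusted p = 0.414) and 0.16 (adjusted p = 0.486). In all, 2 genes were lower (7.14%, against 8.08% of all tested genes) and 1 higher at an unadjusted p-value under 0.05.

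Among the subunits of the proteasome, 30 of 32 tested genes had negative log2 fold changes, against 51.5% of all tested genes. They ran from -0.57 to 0.11 around a median of -0.18. The mean log2 level of the list, centred per gene, was 0.28, 0.00010 and 0.011 in sham 1 to 3. It was -0.24, -0.070 and 0.015 in VO 1 to 3, so VO 3 lay above sham 2 and sham 3. The median was -0.038 with TPM, -0.066 with quantile normalization, -0.099 without sham 1 and -0.11 without VO 1. The groups did not overlap, with VO lower, in 11 of 32 (34.4%, against 12.9% of all tested genes), and 0 were higher without overlap, against 8.25% of all. At an unadjusted p-value under 0.05, 4 were lower and 0 higher. Psmd3 of the regulatory lid was at 22.4 ± 0.590 and 18.5 ± 1.13 FPKM (log2 fold change -0.28, adjusted p = 0.406). The catalytic subunit gene Psmb6 was at 45.5 ± 10.4 and 30.5 ± 5.83 FPKM (log2 fold change -0.57, adjusted p = 0.408).

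Substrates and partners of the members had the lowest median of the 7 lists, -0.40, with 19 of 21 tested genes lower and 7 of them at an unadjusted p-value under 0.05 (33.3%, against 8.08% of all tested genes). The median was -0.18 with quantile normalization, -0.26 with TPM and -0.26 without VO 1. The groups did not overlap, with VO lower, in 10 of 21 (47.6%, against 12.9% of all tested genes). The list shares Actn2, Ttn, Myh6 and Mybpc3 with the cardiomyocyte markers, whose mean log2 level differed by -0.46 in VO. It also holds the muscle genes Tnni3, Myh7, Ckm, Des, Tcap and Myoz2, from -0.95 for Ckm to -0.45 for Myoz2. Irs1, Eif3f, Chmp2b, Ppp3ca, Ppp3cb, Nbr1, Sqstm1, Jun and Rack1 ran from -0.23 for Jun to 0.088 for Chmp2b. The part of cardiomyocyte genes in the list median was not tested. Flnc, which encodes filamin C, was at 21.7, 31.0 and 30.3 FPKM in sham and at 19.3, 20.2 and 19.7 FPKM in VO, which gave -0.47 ± 0.15 (SE) on the log2 scale and an adjusted p of 0.404 in limma. Actn2, which encodes the alpha-actinin of the Z-disc, was at 325, 370 and 363 FPKM in sham and at 219, 296 and 280 FPKM in VO. Both transcripts, whose proteins Fbxl22 acts on, were lower in each VO library than in each sham library. Mybpc3, the cardiac myosin-binding protein C, had a log2 fold change of -0.58 (adjusted p = 0.332), and Srf, the factor that binds CArG boxes, -0.57 (adjusted p = 0.344).

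Regulators upstream of the members were mixed, with 15 of 31 tested genes lower, 16 higher and a median of 0.0072, which was 0.15 with TPM and ran from -0.078 without sham 1 to 0.037 without VO 3. Foxo1, which drives Fbxo32 and Trim63 in atrophy, was at 7.40 ± 0.517 and 9.44 ± 0.774 FPKM, or 0.35 on the log2 scale (adjusted p = 0.404). Tead4, a factor that binds MCAT motifs, was at 1.18 ± 0.0935 and 1.96 ± 0.378 FPKM, or 0.67 on the log2 scale (adjusted p = 0.404). The cardiac factor genes Hand2 (12.9 ± 0.876 and 8.81 ± 0.578 FPKM) and Nkx2-5 (69.2 ± 6.71 and 50.4 ± 6.33 FPKM) were lower, with log2 fold changes of -0.54 (adjusted p = 0.284) and -0.46 (adjusted p = 0.404). At an unadjusted p-value under 0.05, 3 were lower (9.68%, against 8.08% of all tested genes) and 3 higher, where 3.89% of all tested genes were higher.

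FoxO and autophagy targets also went both ways, with 13 of 23 tested genes lower, 10 higher and a median of -0.11 (0.024 with TPM and -0.035 with quantile normalization). With 1 library left out this median was -0.019 without sham 1, -0.065 without VO 2, -0.18 without sham 2 and -0.22 without sham 3. Pdk4, which turns the heart from glucose to fat as fuel, was at 112 ± 31.7 and 191 ± 43.2 FPKM, or 0.79 on the log2 scale (adjusted p = 0.404), and Ulk2 had 0.18 (adjusted p = 0.465). Sesn1 was at 51.0 ± 5.24 and 38.7 ± 2.31 FPKM, or -0.39 on the log2 scale (adjusted p = 0.404), and Irs2 had -0.54 (adjusted p = 0.404). At an unadjusted p-value under 0.05, 4 were lower (17.4%, against 8.08% of all tested genes) and 1 higher.

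**Figure D5:**
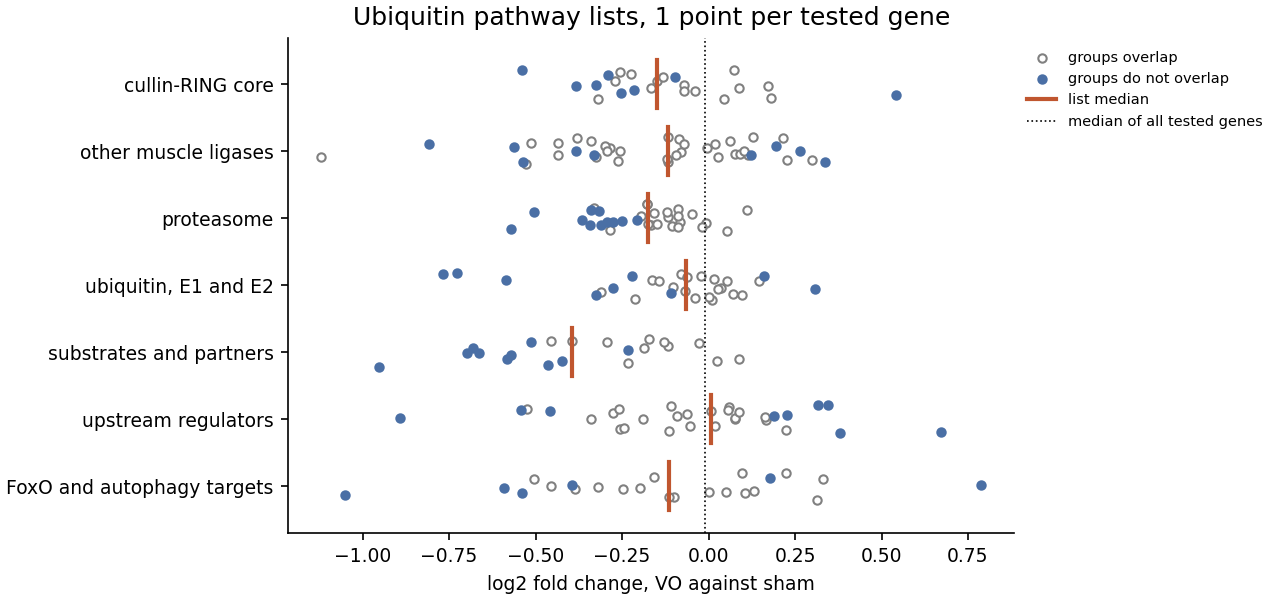
Log2 fold change between VO and sham (x axis) for each tested gene of the 7 pathway lists; filled points mark genes whose groups do not overlap, orange bars the list medians and the dotted line the median of all tested genes. The list of substrates and partners has the lowest median, -0.40, and the upstream regulators lie on both sides of 0.

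Genes were also ranked by how closely their pattern over the 6 libraries followed that of Fbxl22, as the root mean square difference of log2 values after each gene's own mean was removed. Of 12626 genes, the 5 nearest were Gm12693 (0.080), Mylf-ps (0.11), Gm6969 (0.12), Haus8 (0.12) and Gm10275 (0.13). Haus8, a subunit of the augmin complex of microtubules, was at 3.15 ± 0.402 FPKM in sham and 1.76 ± 0.161 FPKM in VO. The other four are processed pseudogenes, whose reads can also come from their parent genes, so their levels are uncertain. Among the members, Klhl31 came nearest, at rank 132 (0.23), followed by Trim63 at rank 559 (0.30), and Fbxo32 was the farthest, at rank 5114 (0.48). The 6 points share libraries and the split between the groups, so the ranks describe these libraries only.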

How the data were processed

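RNA-seq covered the RA of 3 sham and 3 VO libraries. The authors aligned the reads with HISAT2 (2.0.5), counted them per gene with featureCounts (1.5.0-p3) and deposited FPKM values; the submitters' processing notes name GRCm38 and mm10. The table held 54093 complete genes and 1 incomplete line, which was left out. Multiplied by gene length, 100% of the values above 0 were whole multiples (within 0.01) of 1 step per library, which gave back the fragments. The step also gave the library size behind the FPKM. It was about 15557400 for sham 1, with 16494342 fragments on genes, and about 18144100 for VO 1, with 16852482. Since the median-of-ratios factors given next were all 1, the deposited values were already on that scale. The FPKM were scaled with median-of-ratios factors (all were 1), filtered to a mean of at least 1 FPKM, transformed as log2(FPKM + 0.1) and fitted with limma 3.58.1 in R 4.3.3 (trend in eBayes, two-sided, Benjamini-Hochberg adjustment over 12627 genes, threshold 0.05). Fold changes are on that scale and understate changes of low genes. An exact permutation test of 3 against 3 cannot go below p = 0.1. The fit was checked on simulated data. A count test was not the main test because the unit is FPKM. Genes were named by a written rule: the 7 members, up to 2 genes per list and direction without overlap, Actn2 and Flnc, the 3 highest genes of each family in sham, and the 5 nearest to Fbxl22. Some genes that this rule selects are not reported here. Genes at the ends of a family's order, and Acta2, Ucp1 and other single markers, were named after their values were seen. Members and lists were chosen with earlier results of these data known. Alternatives were another pseudocount, filter or scaling, voom, the replicate number as a block, and each library left out. Figures were drawn with matplotlib 3.10.9.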

Additional observations from a re-analysis of the deposited data

How the results depend on the processing

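In all 15 settings Fbxl22 had the lowest log2 fold change of the 7 members, from -1.02 to -0.82 (highest with TPM, where the median of all tested genes moved from -0.01 to 0.13). The other filters and the replicate block cannot change this value, which stayed at -0.96. The group was built around this difference in the same libraries, so its rank is a description only. Fbxo32 changed sign with TPM (0.097) and quantile normalization (0.064), and ran from -0.15 to 0.038 with 1 library left out (0.025 without sham 3, 0.038 without VO 3). Relative to the cardiomyocyte markers, quantile normalization turned Trim54 (-0.11), Trim55 (-0.019) and Trim63 (-0.034) and moved Fbxl22 (-0.68), Fbxo32 (0.23), Fbxo40 (0.0057) and Klhl31 (-0.37) by more than the spread between libraries, and Trim54 ran from -0.035 without sham 3 (-0.0040 without VO 2) to 0.19. The number of genes with an adjusted p under 0.05 was 1, against 2 with a pseudocount of 1, 3 with a filter of 0.1 FPKM, 0 with quantile normalization, 0 with the replicate block and 0 with any library left out; voom gave 1. Genes lower at an unadjusted p-value under 0.05 numbered 1020, against 486 with TPM, 608 with the replicate block and 599 (without sham 1) to 1223 with 1 library left out, with 634 without VO 1. Genes higher numbered 491, against 229 with a filter of 5 FPKM, 1085 with TPM, 324 with the replicate block and 274 (without sham 1) to 774 (without VO 2) with 1 library left out, over 1.5 times apart for each library but VO 3. List medians moved by more than the spread between libraries for the cullin-RING core (-0.011 with TPM), other muscle ligases (0.023 with TPM), ubiquitin with its E1 and E2 enzymes (0.075 with TPM, 0.031 with quantile normalization), substrates and partners (-0.18 with quantile normalization) and upstream regulators (-0.076 with a filter of 5 FPKM, 0.15 with TPM, and -0.078 without sham 1 to 0.037 with 1 library left out). The cause of these moves was not tested. Replicate numbers were not read as pairing the libraries. The deviations of same-numbered sham and VO libraries correlated at -0.108, 0.0112 and -0.0292 across genes. In this balanced layout a block cannot change the fold changes, so their staying the same says nothing about pairing. The counts of members without overlap with 1 library left out were added after the data were seen.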
